A study of Mus musculus with 11 samples.

Results

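The 6 *Dlx* homeobox genes, *Dlx1* to *Dlx6*, were examined for H3K27me3 in the medial (MGE), caudal (CGE) and lateral (LGE) ganglionic eminences and the cortex (CTX) of the embryonic mouse forebrain. They were taken by name, as 6 of the 21728 protein-coding genes annotated on chromosomes 1 to 19 and X, and lie in 3 loci of 2 genes each. For each locus a window was set over both gene bodies, the sequence between them and 10 kb either side. All samples came from wild-type C57BL/6J embryos, 11 in all, of which MGE had 2 and each other region 3. The protocol shared by the samples names embryonic days E12.5 and E14.5 and no age is given for a single sample, while the study places these experiments at E12.5. Antibody-directed tagmentation (CUT&Tag) cut and tagged DNA near nucleosomes carrying the modification. The deposited peaks were called after samples of the same region had been merged. Each region thus has 1 list of peaks here, so the values below carry no replicate error, no difference was tested, and how far animals differ was not analysed here.

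*Dlx* genes encode homeodomain transcription factors related to *Drosophila* Distal-less, and in mammals they are arranged as linked pairs. *Dlx1*, *Dlx2*, *Dlx5* and *Dlx6* are expressed in the ventral forebrain, where they act in the production, migration and differentiation of GABAergic neurons, whereas *Dlx3* and *Dlx4* are better known from skin, placenta and craniofacial tissue. H3K27me3 is laid down by Polycomb repressive complex 2, often over CpG-rich promoters of developmental regulators that are silent in a given cell. A dissected region is a mixture of cells, and fewer cells with the mark cannot be told apart from less of the mark per cell.

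In the GRCm38 (mm10) assembly the *Dlx1-Dlx2* window was chr2:71518113-71556754, the *Dlx3-Dlx4* window chr11:95110119-95156263 and the *Dlx5-Dlx6* window chr6:6853334-6892085. In each pair the genes pointed toward one another, so that both 5′ ends faced out of the pair and the sequence between the genes lay behind their 3′ ends. *Dlx1*, *Dlx3* and *Dlx6* were on the plus strand, and *Dlx2*, *Dlx4* and *Dlx5* on the minus strand. The 5′ end of a gene was the outermost base of its annotation, at position 71528113 for *Dlx1*, 71546754 for *Dlx2*, 95120119 for *Dlx3*, 95146263 for *Dlx4*, 6882085 for *Dlx5* and 6863334 for *Dlx6*.

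The sequence just upstream of 4 of these genes is shown because its place under or outside peaks sets the genes apart. It was read from the RefSeq copy of GRCm38, 5′ to 3′ on the strand of the gene, outside all protein-coding exons, with each CpG dinucleotide in capitals. The *Dlx1* stretch (chr2:71527813-71528112, plus strand, 300 bases) was under a peak in CGE and CTX and in no peak in MGE and LGE. The *Dlx4* stretch (chr11:95146328-95146627, minus strand, 300 bases) had the opposite assignment, under a peak in MGE and LGE and in none in CGE and CTX. The *Dlx2* stretch (chr2:71546755-71547004, minus strand, 250 bases, from the RefSeq promoter table of GRCm38.p6) was in no peak of any list. The *Dlx5* stretch (chr6:6882086-6882235, minus strand, 150 bases) was wholly under peaks in all 4 lists.
Dlx1: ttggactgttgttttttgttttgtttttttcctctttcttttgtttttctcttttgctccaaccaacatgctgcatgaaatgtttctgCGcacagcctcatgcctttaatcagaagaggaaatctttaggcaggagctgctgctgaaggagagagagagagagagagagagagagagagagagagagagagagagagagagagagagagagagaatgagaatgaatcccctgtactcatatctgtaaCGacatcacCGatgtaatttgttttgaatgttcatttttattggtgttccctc
Dlx4: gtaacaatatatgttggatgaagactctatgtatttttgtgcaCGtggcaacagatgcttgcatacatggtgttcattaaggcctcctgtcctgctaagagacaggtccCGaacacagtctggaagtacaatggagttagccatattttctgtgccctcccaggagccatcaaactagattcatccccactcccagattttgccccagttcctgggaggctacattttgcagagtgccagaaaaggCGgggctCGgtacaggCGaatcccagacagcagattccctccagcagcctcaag
Dlx2: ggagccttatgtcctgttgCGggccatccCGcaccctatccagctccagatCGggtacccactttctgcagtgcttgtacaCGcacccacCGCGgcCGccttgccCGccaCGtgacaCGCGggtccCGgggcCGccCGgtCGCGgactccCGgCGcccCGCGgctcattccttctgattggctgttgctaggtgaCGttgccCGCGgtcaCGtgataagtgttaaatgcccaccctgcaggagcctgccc
Dlx5: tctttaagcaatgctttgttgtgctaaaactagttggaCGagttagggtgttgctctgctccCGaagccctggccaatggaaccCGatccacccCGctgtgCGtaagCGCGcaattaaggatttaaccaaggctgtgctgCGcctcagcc

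The stretches differed in CpG content in a way that did not follow their coverage. The uncovered *Dlx2* stretch held 24 CpG and had a CpG observed over expected ratio of 0.890, the highest of the 4. The covered *Dlx5* stretch held 8 CpG, with a ratio of 0.750. Of the stretches shown, those that differed between lists were CpG-poor, with 3 CpG and a ratio of 0.252 upstream of *Dlx1* and 5 CpG and a ratio of 0.271 upstream of *Dlx4*. Differing bases were not CpG-poor throughout. The ratio was 0.614 over chr2:71527549-71528850, of which the *Dlx1* stretch is a part. It was 0.937 over chr11:95145960-95146327, which holds the *Dlx4* 5′ end and was uncovered in CGE alone. Bases soft-masked as repeats in the reference made up 54.7% of the *Dlx1* stretch, which holds a run of GA, and 7.33% of the *Dlx5* stretch. *Dlx1* and *Dlx2* were the 2 of 6 members matched in the promoter table, where the ratio was 0.767 for *Dlx1* and 0.898 for *Dlx2*, against a median of 0.384 over 32851 promoters. The *Dlx1* promoter of that table, chr2:71529195-71529494, lies downstream of the *Dlx1* stretch shown and does not overlap it. The homeodomain core TAATTA, which is its own reverse complement, was in none of the 4 stretches and in 5.29% of those 300-base promoters.

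Every *Dlx* gene lay partly under H3K27me3 peaks in every region, the eminences included. Peaks covered 51.5% of the *Dlx1-Dlx2* window in CTX, 43.7% in MGE, 51.4% in CGE and 40.9% in LGE. They covered 45.5% of the *Dlx5-Dlx6* window in CTX, 42.4% in MGE, 42.3% in CGE and 39.0% in LGE. In the *Dlx3-Dlx4* window the values were 31.1% in CTX, 33.0% in MGE, 30.9% in CGE and 33.8% in LGE. CTX minus the mean of the 3 eminences was thus 6.18 percentage points for *Dlx1-Dlx2*, 4.26 points for *Dlx5-Dlx6* and -1.50 points for *Dlx3-Dlx4*. CTX had the highest coverage of the 4 lists in *Dlx5-Dlx6*. In *Dlx1-Dlx2* CTX and CGE were nearly equal, and CGE was the higher with flanks of 5 kb (65.2% against 65.1%), flanks of 20 kb (36.2% against 33.9%), a q under 0.001 (51.4% against 50.03%) and peaks joined within 2 kb (60.04% against 59.93%). LGE had the lowest coverage in both pairs as deposited, whereas with peaks joined within 2 kb the lowest was MGE in *Dlx1-Dlx2* (47.0%) and CGE in *Dlx5-Dlx6* (42.3%). The differences between CTX and the eminences changed in size with the width of the flanks, and with peaks less than 2 kb apart joined that of *Dlx3-Dlx4* turned to 0.340 points. The lists themselves differ in size, with 15384 peaks over 24.5 Mb in MGE, 19196 over 32.9 Mb in CGE, 16851 over 26.4 Mb in LGE and 18785 over 31.2 Mb in CTX. With the strongest peaks of each list taken up to the bases covered in MGE, the difference for *Dlx1-Dlx2* was 4.71 points and the other 2 kept their values.

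**Figure D1:**
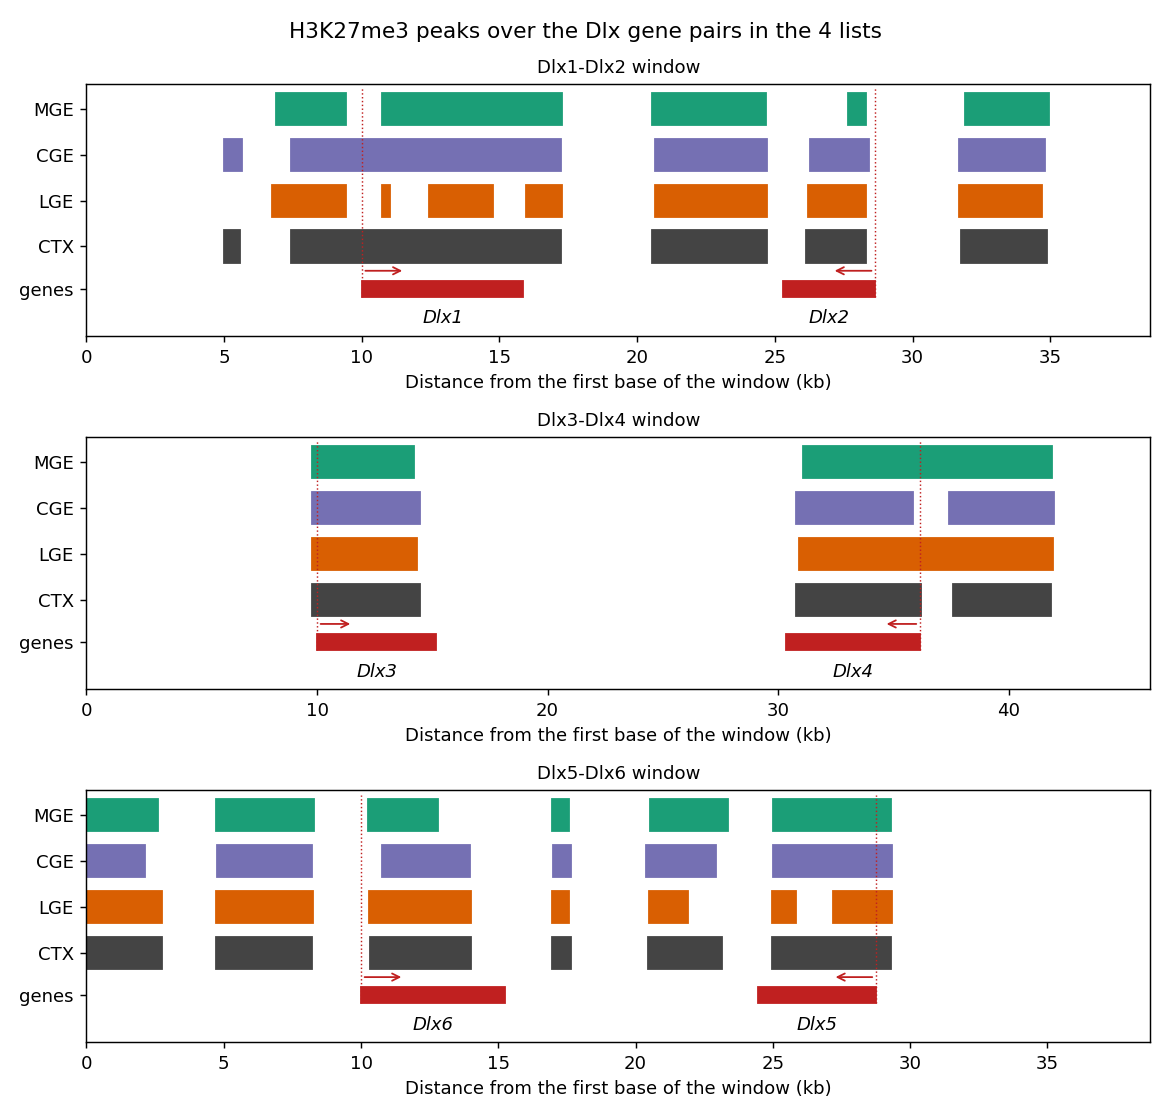
H3K27me3 peaks over the 3 *Dlx* windows, with the distance from the first base of the window in kb on the x axis, 1 bar track per region, and gene bodies in red with an arrow and a dotted line at each 5′ end. Peaks sat in much the same places in all lists, and the 5′ ends of *Dlx2* and *Dlx6* fell outside peaks in each. The tracks differed where a peak was broken, reached less far or was missing in some lists.

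Around the 5′ ends, the members fell into genes covered alike in the 4 regions and genes covered unlike. Coverage of the 4 kb centred on the 5′ end (2 kb either side) was used, and a gene was called marked with at least 50% of these bases under peaks. By this rule *Dlx3*, *Dlx4* and *Dlx5* were marked in all 4 lists, 3 of 6 members, against 7.55% of all protein-coding genes. Of the 6 members, 4 were marked in CTX (10.9% of all genes), 5 in MGE (9.77%), 4 in CGE (12.3%) and 3 in LGE (10.2%). No member was free of peaks within 2 kb of its 5′ end, whereas 60.9% of all genes had no covered base there in any list. Developmental regulators such as homeobox genes are a class in which the mark is common, and the count of 3 rested on the threshold. It was 6 with any 1 covered base and 0 at 80%.

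*Dlx1*, which acts with *Dlx2* in the differentiation and migration of subpallial neurons, showed the widest spread around its 5′ end. Peaks covered 100% of these bases in CTX and CGE, 67.5% in MGE and 43.4% in LGE. A single peak of 9824 bases in CGE and 9829 bases in CTX ran over the 5′ end and the whole gene body. In MGE and LGE the same break, chr2:71527549-71528850 (1302 bases), removed the 5′ end and the first bases of the gene from the peaks. LGE had further breaks of 1415 and 1209 bases within or at the end of *Dlx1*, which left 44.2% of the gene body under peaks there, against 87.4% in MGE and 100% in CGE and CTX. The coding exons of *Dlx1* were covered over 59.1% of their bases in LGE and wholly in the other lists. From the 5′ end of the curated RefSeq transcript, position 71529445, coverage was 100% in CTX, 67.5% in MGE, 100% in CGE and 32.1% in LGE, and that start lay in a peak in each list but LGE.

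*Dlx2*, the homeobox gene needed with *Dlx1* for the exit of interneurons from the eminences, had, like *Dlx6*, an uncovered 5′ end. It lay in a stretch of 3237 bases, chr2:71546546-71549782, with no peak in any list, and none of the 2 kb upstream of it was covered in MGE, CGE, LGE or CTX. Peaks began 344 bases inside the gene in MGE and LGE, 209 in CGE and 334 in CTX. The curated RefSeq start was the same base, whereas another annotated start of *Dlx2*, position 71545950, lay in a peak in all 4 lists. The gene body was covered over 65.0% in CTX, 19.6% in MGE, 64.5% in CGE and 63.0% in LGE. MGE stood apart, with a peak of 657 bases in place of those of 2160, 2107 and 2177 bases in CGE, LGE and CTX. The coding exons of *Dlx2* were covered over 41.1% in MGE and over 100% in the other 3 lists. The uncovered bases in MGE, chr2:71544386-71545753, lay within the gene, and the MGE peak that remained had a −log10 q of 3.98, where CTX had 30.1, CGE 17.0 and LGE 11.8.

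*Dlx5*, a factor of ventral forebrain, bone and craniofacial development, was covered in each list at its 5′ end. Peaks took 63.7% of the bases around it in CTX, 63.4% in MGE, 64.8% in CGE and 53.7% in LGE. The lists were close, with LGE lowest and with a break of 1340 bases within the gene, chr6:6879174-6880513, that was found in LGE alone. Coverage of the gene body was 88.2% in CTX, 87.4% in MGE, 87.5% in CGE and 57.3% in LGE. Of the 2 pieces that remained in LGE, the one at the 3′ end of *Dlx5* had a −log10 q of 79.3 and the one with the 5′ end 17.7. The single peak over the gene had 31.7 in CTX, 30.4 in CGE and 15.6 in MGE.

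*Dlx6*, which is expressed with *Dlx5*, resembled *Dlx2* in an uncovered 5′ end. The end lay in a stretch of 1975 bases without peaks in any list, chr6:6861624-6863598, and the nearest peak began 311 bases inside the gene in CTX, 265 in MGE, 275 in LGE and 777 in CGE. The curated RefSeq start was the same base. Other annotated starts of *Dlx6*, positions 6863797 and 6863798, lay in a peak in MGE, LGE and CTX but not in CGE. Coverage around the 5′ end was 47.5% in CTX, 50.6% in MGE, 36.0% in CGE and 49.0% in LGE, so that MGE passed the 50% limit and LGE and CTX missed it by little. Coverage of the gene body was 70.5% in CTX, 48.6% in MGE, 61.1% in CGE and 71.6% in LGE. The order of the lists over the body was thus not their order around the 5′ end.

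*Dlx3*, a regulator of epidermal and placental differentiation, was the most even of the members. Coverage around its 5′ end was 55.9% in MGE and 55.2% in CGE, LGE and CTX. A single peak of 4432 to 4659 bases held the 5′ end and all coding exons in each list, and it covered between 81.1% and 85.9% of the gene body. No list had a peak in the 16343 bases after it, which include the whole 15150 bases between *Dlx3* and *Dlx4*.

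*Dlx4*, expressed in placenta and branchial arches, differed between lists mainly upstream of its 5′ end and not over its coding exons, which were wholly covered in all 4. A peak of 10799 bases in MGE and of 11034 bases in LGE ran from the gene body across the 5′ end and beyond. In CGE it was broken over 1566 bases (chr11:95145960-95147525) and in CTX over 1369 bases (chr11:95146328-95147696). The 5′ end thus lay outside peaks in CGE alone, whereas the curated RefSeq start of *Dlx4*, position 95145801, lay in a peak in all 4 lists. Coverage around the 5′ end was accordingly 100% in MGE and LGE, 60.9% in CGE and 65.8% in CTX, and that of the 2 kb upstream was 100% in MGE and LGE, 36.9% in CGE and 31.6% in CTX. The lists that were whole at *Dlx4*, MGE and LGE, were those that were broken at *Dlx1*.

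**Figure D2:**
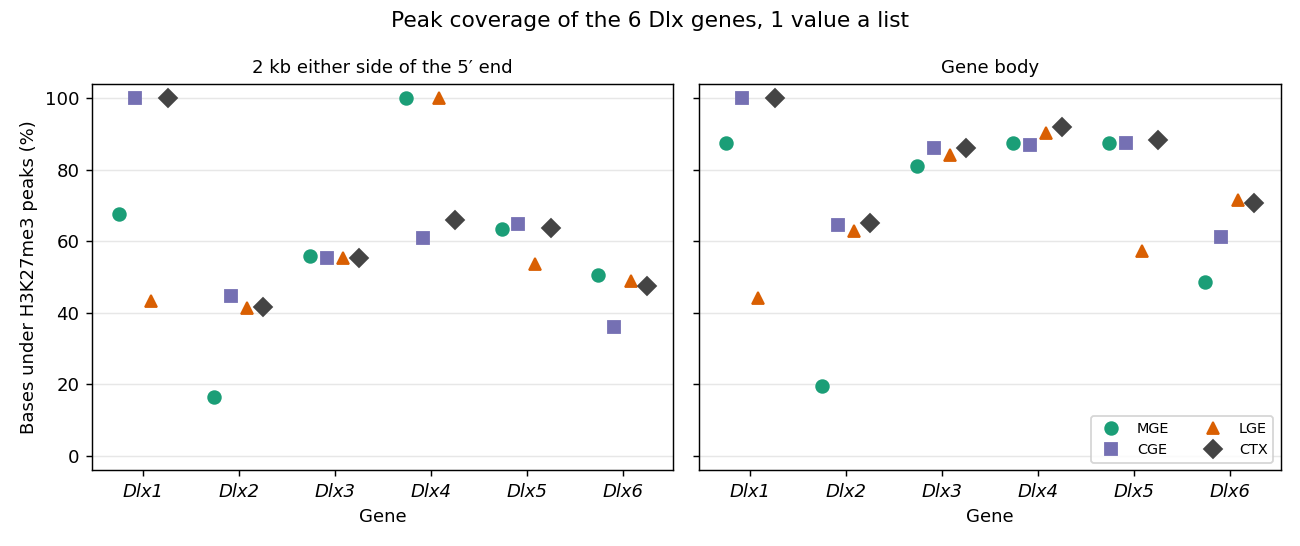
Percentage of bases under H3K27me3 peaks (y axis) for each *Dlx* gene (x axis), within 2 kb of the 5′ end (left) and over the gene body (right), with 1 point per list and therefore no error bars. *Dlx3* values nearly coincide, *Dlx1* runs from 43.4% in LGE to 100% in CGE and CTX around the 5′ end, and *Dlx2* has its lowest values in MGE in both plots.

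The comparison between CTX and the eminences, and of each eminence with the other regions, asked whether coverage around the 5′ ends followed the regions in which the genes are used. A gene was counted as different when CTX differed from the mean of the eminences by at least 20 points. *Dlx1* was higher in CTX by 29.7 points, 1 of 6 members where 2.6% of all genes were higher. *Dlx4* was lower in CTX, at -21.2 points, 1 of 6 where 2.03% of all genes were lower. *Dlx2* (7.45 points), *Dlx5* (3.05 points), *Dlx6* (2.32 points) and *Dlx3* (-0.208 points) did not reach the limit. Each eminence was then set against the mean of the other 3 lists by the same limit. MGE was higher at *Dlx4* by 24.5 points (1.14% of all genes were higher in MGE) and lower at *Dlx2*, at -26.2 points (2.56% lower). CGE was higher at *Dlx1* by 29.7 points (3.31% higher in CGE) and lower at *Dlx4*, at -27.7 points (0.709% lower). LGE was higher at *Dlx4* by 24.5 points (0.985% higher in LGE) and lower at *Dlx1*, at -45.8 points (1.53% lower). The shares of all genes include the 60.9% with no covered base around the 5′ end in any list, which cannot reach the limit. All 6 members had covered bases there, so the shares among genes with coverage are larger than those given. These comparisons share their lists and are not independent of one another. *Dlx3*, *Dlx5* and *Dlx6* reached the limit in none of them as deposited. The lower value of MGE at *Dlx2* depended on the width taken. With 1 kb either side of the 5′ end it was -2.42 points (32.8% in MGE and LGE, 33.3% in CTX and 39.5% in CGE), and with 5 kb either side -17.6 points. Of the 6 differences of eminences past 20 points, that of LGE at *Dlx1* alone passed with 5 kb either side (-24.2 points).

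The breaks at *Dlx1*, *Dlx4* and *Dlx5* described above were close to the shortest that the lists hold. The smallest gap between neighbouring peaks over all chromosomes was 1119 bases in LGE, 1154 in MGE, 1230 in CTX and 1247 in CGE. Those breaks measured between 1209 and 1566 bases. Gaps under 2 kb made up 7.14% of all gaps in LGE, 6.15% in CTX, 5.85% in CGE and 5.71% in MGE. With peaks less than 2 kb apart joined, CTX minus the mean of the eminences was 0 points at both *Dlx1* and *Dlx4*, with 100% covered in all 4 lists, and no member reached 20 points in that comparison. The same joining put MGE above the other lists at *Dlx6* by 55.9 points. At *Dlx2* the same joining left the values around the 5′ end as they were, 16.4% in MGE and 41.4% to 44.8% in the other lists, and the uncovered bases of *Dlx2* in MGE were not a break under 2 kb. The sequence of the differing bases was not all repetitive. Soft-masked repeats made up 15.7% of the *Dlx1* break shared by MGE and LGE, 6.87% of the *Dlx5* break in LGE and 34.5% of the 1198 bases upstream of *Dlx4* covered in MGE and LGE alone. Their part in the breaks was not tested.

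Peak strength gave a more even picture across the pairs than coverage. Overlapping peaks of the lists were merged into stretches, and of the *Dlx* stretches 12 had a peak in every list, 4 in the *Dlx1-Dlx2* window, 2 in *Dlx3-Dlx4* and 6 in *Dlx5-Dlx6*. The −log10 q of the strongest peak, as given by the peak caller, was highest in CTX in 8 of these 12, against 22.3% of the 9655 such stretches genome-wide, and lowest in MGE in 12 of 12, against 66.2%. MGE was also the region sequenced to the lowest total depth and CGE that to the highest, and the part of depth was not tested. Because −log10 q grows with the number of reads, each peak was also ranked within its own list as the percentage of peaks with a lower value. By that rank CTX was highest in 11 of 12 stretches, against 35.7% genome-wide. Over all 9655 stretches the rank was highest in CGE at 3889 and in CTX at 3445, the regions of greatest depth. It was lowest most often in MGE (3957), the region of least depth. The part of depth in the rank was not tested, and the stretches genome-wide were not matched to those of *Dlx* in width. The margin over the next list was small at some of them. CTX had 85.1 against 84.0 in LGE over *Dlx1* and 97.8 against 97.1 in LGE over *Dlx3*. In the *Dlx5-Dlx6* window it had 99.0 against 98.7 in LGE between the genes, and 78.7 against 78.2 in LGE at chr6:6850437-6856098. The exception was the stretch over *Dlx5*, where LGE ranked highest, at 97.2 against 88.0 in CTX. That LGE value came from a piece of 881 bases at the 3′ end of *Dlx5*. The LGE piece that held the 5′ end ranked 78.9, below CTX, CGE (83.7) and MGE (83.1). Both *Dlx3-Dlx4* stretches were among the 11, the one over *Dlx3* by a small margin. A higher rank in CTX was thus found in the pair not known from the forebrain as well as in the others. Stretches of one window are neighbours and do not count as independent observations.

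Between *Dlx1* and *Dlx2*, a region known to hold forebrain enhancers of the pair, 1 stretch behind their 3′ ends (chr2:71538645-71542837) had a −log10 q of 49.2 in CTX, 13.0 in MGE, 24.2 in CGE and 25.7 in LGE. The ranks within the lists were 93.3 in CTX, 80.2 in MGE, 80.6 in CGE and 84.1 in LGE. Over *Dlx2* the ranks were 87.4 in CTX, 55.3 in MGE, 75.6 in CGE and 72.5 in LGE, the widest range of the 12 stretches. Over *Dlx6* they were 92.3 in CTX, 71.4 in MGE, 82.2 in CGE and 83.4 in LGE. CTX thus ranked above each eminence at these stretches. In LGE and CTX the highest −log10 q of the 12 stretches lay between *Dlx5* and *Dlx6* (chr6:6873702-6876683), with a −log10 q of 99.8 in CTX, 32.0 in MGE, 68.4 in CGE and 99.2 in LGE, and LGE and CTX had nearly equal values there. In MGE and CGE the highest lay over *Dlx3*, at 44.1 and 91.0, and the ranks there were between 96.7 and 97.8 in all lists.

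**Figure D3:**
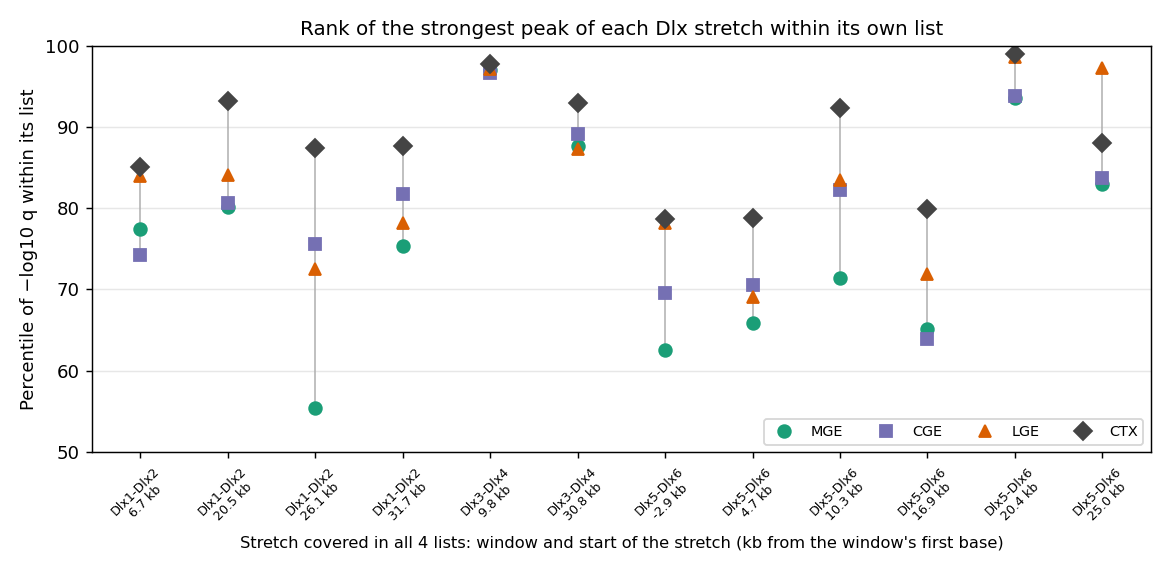
Percentile of the strongest peak's −log10 q within its own list (y axis, starting at 50) for the 12 *Dlx* stretches with a peak in all 4 lists (x axis, by window and start), 1 point per list, with a grey line from the lowest to the highest. CTX is highest in 11 of 12 stretches, in some by a small margin, and the stretch over *Dlx2* has the widest range, from 55.3 in MGE to 87.4 in CTX.

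The peaks were mostly wide and had a low reported fold enrichment, and they were not compared with peaks of the same width. Fold enrichment, the ratio of signal to the local background that the caller reported, was under the median of its list for each of the 22 peaks in the *Dlx1-Dlx2* window, the 10 in *Dlx3-Dlx4* and the 25 in *Dlx5-Dlx6*. For the 47 peaks of *Dlx1-Dlx2* and *Dlx5-Dlx6* the median rank was 5.09 by fold enrichment, 78.8 by −log10 q and 88.2 by width. For the 10 peaks of *Dlx3-Dlx4* the corresponding medians were 4.42, 91.0 and 97.4. The *Dlx* loci were therefore covered by long peaks with a low ratio and a small q-value, and the pairs used in the forebrain had lower median ranks by −log10 q and by width than *Dlx3-Dlx4*. Coverage of each gene body exceeded that of at least 94.1% of all protein-coding genes in each list.

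The outline of the peaks was much alike between regions. Of the bases covered in any list, 63.9% were covered in all 4 in the *Dlx1-Dlx2* window, 84.8% in *Dlx3-Dlx4* and 69.1% in *Dlx5-Dlx6*. The overlap of 2 lists, measured as the percentage of their combined bases that both held, was greatest between CGE and CTX in the *Dlx1-Dlx2* window (97.1%) and in the *Dlx5-Dlx6* window (91.4%), and between MGE and LGE in *Dlx3-Dlx4* (97.4%). Over whole lists CGE and LGE overlapped most (60.1%), and CGE and CTX overlapped by 51.5%. As deposited, the lists that overlapped most at the *Dlx* windows were therefore not those that overlapped most as a whole. In *Dlx5-Dlx6* MGE and CTX followed closely, at 89.55%. The overlap was not computed with peaks less than 2 kb apart joined. Breaks under 2 kb set MGE and LGE apart from CGE and CTX at *Dlx1* and upstream of *Dlx4*. CGE and CTX were also the lists with the most covered bases, and the part of list size was not tested. Peak edges fell within 10 bases of the same edge in another list for 24 of 44 edges in *Dlx1-Dlx2*, 9 of 20 in *Dlx3-Dlx4* and 20 of 50 in *Dlx5-Dlx6*, against 19.3% of all 140432 edges. Of the shared edges in the windows 45.3% had a repeat-masked base within 50 bases, and of the other edges 36.1%. Over all peaks of chromosomes 2, 6 and 11 the values were 37.6% and 39.7%.

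Covered and uncovered bases of the windows differed in composition, as a property of the reference and not of the samples. Bases covered in all 4 lists had a GC content of 54.4% in *Dlx1-Dlx2*, 54.6% in *Dlx3-Dlx4* and 51.9% in *Dlx5-Dlx6*, and bases in no list had 44.1%, 50.7% and 42.7%. CpG dinucleotides numbered 30.1, 32.0 and 29.5 per kb in the former and 18.1, 14.1 and 14.3 per kb in the latter. Repeat-masked bases were 13.7%, 12.4% and 13.5% of the former and 22.6%, 28.4% and 22.4% of the latter. The core TAATTA occurred 2, 2 and 1 times in bases covered in all 4 lists and 10, 7 and 13 times in bases covered in none, which are more numerous and richer in A and T.

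Antisense and other noncoding genes shared the windows and cannot be separated from the *Dlx* genes by peaks, which carry no strand. *Dlx1as*, antisense to *Dlx1*, was covered over 48.5% of its length in CTX, 42.2% in MGE, 48.8% in CGE and 30.8% in LGE. *Dlx6os1*, a long noncoding RNA gene that overlaps *Dlx6*, had 29.1% in CTX, 25.0% in MGE, 25.5% in CGE and 27.6% in LGE, and no peak reached its 5′ end at position 6871592. *Dlx4os*, which runs across the break upstream of *Dlx4*, had 39.6% in CTX, 49.5% in MGE, 39.1% in CGE and 50.02% in LGE. The short genes *Dlx6os2* and *Gm44094* were covered over 76.8% and 61.1% in CGE, their lowest list, and the protein-coding gene *Metap1d*, whose 3′ end enters the *Dlx1-Dlx2* window, over at most 2.82%. A short RNA gene annotated under the name *Dlx6os1* was covered in no list.

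Genes known to act around the *Dlx* genes in GABAergic neurons were described by the same measure. Of a list of 18, 8 were marked in all 4 lists, against 7.55% of all protein-coding genes. Of the 18, 9 were marked in CTX (10.9% of all genes), 11 in MGE (9.77%), 12 in CGE (12.3%) and 9 in LGE (10.2%). CTX was at least 20 points above the eminences at 3 (2.6% of all genes were higher) and below them at 5 (2.03% lower). Differences in both directions were thus found in the list, as among all genes and the *Dlx* genes. At the *Dlx* genes they were those of *Dlx1* and *Dlx4*, which fell under 20 points with joining within 2 kb or 5 kb either side. The 18 genes were described as deposited and were not taken through the other settings. The genes higher in CTX were *Gad2*, an enzyme of GABA synthesis (38.5 points), *Lhx8*, a LIM homeobox gene of the MGE (29.1 points), and *Erbb4*, a neuregulin receptor of migrating interneurons (24.8 points). Those lower in CTX were the zinc finger gene *Sp8* (-50.8 points), the chemokine receptor gene *Cxcr4* (-46.4 points), *Meis2* (-34.0 points), *Nrp1* (-28.1 points) and *Etv1* (-25.5 points). *Gad1*, the other GABA synthesis enzyme, had no covered base within 2 kb of its 5′ end in any list. *Gsx1*, which with *Gsx2* lies upstream of *Dlx*, was covered to 100% in all 4. *Gsx2* had 71.2% in MGE, 90.3% in CGE and LGE and 90.6% in CTX.

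**Figure D4:**
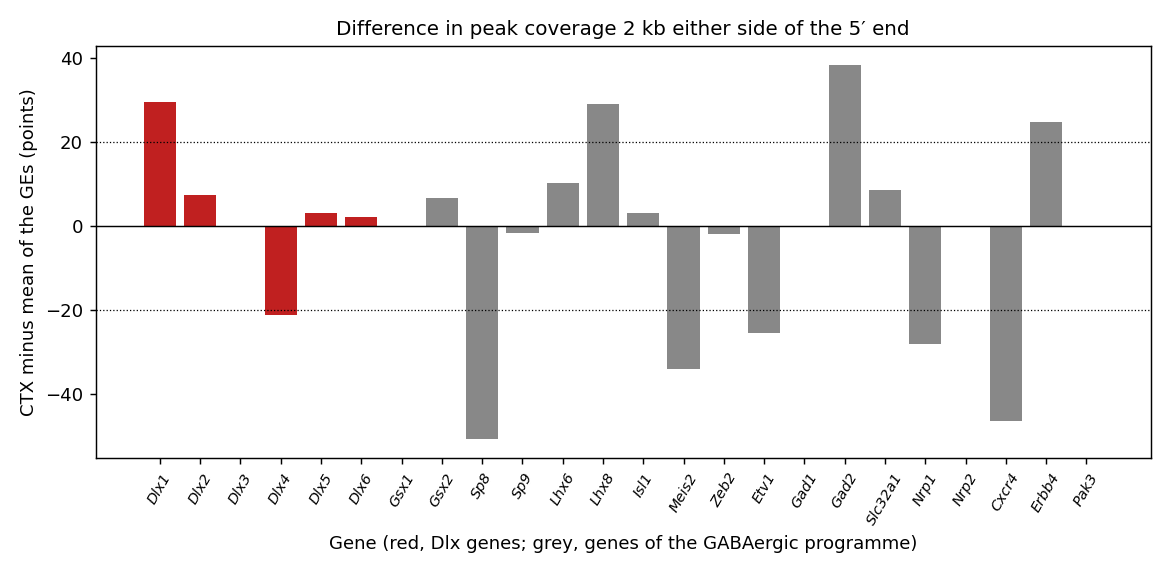
Coverage of the 2 kb either side of the 5′ end in CTX minus the mean of MGE, CGE and LGE, in percentage points (y axis), for the 6 *Dlx* genes (red) and 18 genes of the GABAergic programme (grey), with dotted lines at 20 points either way. *Dlx1* (29.7 points) and *Dlx4* (-21.2 points) pass the lines, and in the programme 3 genes pass upward and 5 downward.

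Against families of like function 3 of 6 *Dlx* genes marked in all 4 lists stood beside 6 of 12 LIM homeobox genes and 8 of 10 *Nkx2* and *Nkx6* genes. Of all protein-coding genes 7.55% were marked in all 4. *Lhx6*, *Lhx8* and *Isl1* are both LIM genes and genes of the GABAergic list. CTX was higher by 20 points at 2 LIM genes and lower at 1, and it was higher at 0 and lower at 1 of the *Nkx* genes. Of all genes 2.6% were higher and 2.03% lower. The median difference between CTX and the eminences was 2.68 points for *Dlx*, 2.27 for LIM and 0 for *Nkx* and for all genes, and these differences between families were not tested. The genes whose 4 values around the 5′ end came closest to a member, by the largest difference over the 4 lists, were *Uncx*, *Pax5* and *Kcnj8* for *Dlx1* (11.4 to 17.6 points), *Plekhh1* and *Pygo1* for *Dlx2* (3.70 and 4.42 points) and *Corin*, *Sun3* and *Hivep3* for *Dlx3* (0.45 to 0.8 points). They were *Hoxc5*, *Hoxc10* and *Car4* for *Dlx4* (9 to 18.5 points), *Thsd4*, *Klrg2* and *Clic5* for *Dlx5* (1.68 to 2.12 points) and *Cnnm2*, *Sorcs2* and *Arl10* for *Dlx6* (3.12 to 3.30 points). *Hoxc5* had 67.6% in CTX, 91.0% in MGE, 65.2% in CGE and 91.2% in LGE, the pattern of *Dlx4*.

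Markers of the dissected regions went with the labels only in part. *Emx1* and *Emx2*, homeobox genes of the cortex, had their lowest gene body coverage in CTX, at 20.6% and 18.3%, against 41.7% to 42.2% and 24.6% to 66.9% in the eminences. *Nkx2-1*, which defines the MGE, was covered to 100% around its 5′ end in all 4 lists, MGE included, and *Neurod6*, a gene of cortical neurons, in none. By the same measure *Lhx6* had its lowest value in MGE (69.2%) and *Ebf1* in LGE (14.4%), the regions they mark. *Lhx8*, also of the MGE, had 76.7% in MGE and less in CGE (66.0%) and LGE (70.2%), and *Isl1*, a marker of LGE, had 24.1% to 27.5% with no low value in LGE. *Emx2* had no covered base around its 5′ end in CGE, LGE or CTX, and *Meis2* had no covered base in LGE or CTX. *Nr2f2*, a marker of CGE, had 27.3% to 27.6% in CGE, LGE and CTX and 59.7% in MGE. The cortical genes *Tbr1* (52.1% in CTX) and *Neurod2* (54.5% in CTX) were under peaks in every list, and *Eomes* was covered to 100% in each. The protocol also states that nuclei of the regions were combined in equal numbers, although each sample is labelled with 1 region. How far this touches the coverage of the *Dlx* genes in the eminences was not tested.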

How the data were processed

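H3K27me3 CUT&Tag was measured in 11 samples of 4 regions, grouped by the tissue in their labels. The study describes 2 biological replicates per region. Outside MGE, 2 of the 3 samples of a region carry the same replicate number and so belong to 1 replicate. The authors aligned reads to GRCm38 (mm10) with Bowtie2, removed blacklisted regions and PCR duplicates (Picard), merged samples with SAMtools and ran MACS in its broad mode on the merged reads. They also called peaks per replicate to assess reproducibility, and those lists were not used here. The MACS version and its control are not given in the sources used here. The deposited lists give each peak a fold enrichment (a ratio) and a −log10 q-value, which were used to describe, rank and filter peaks. The deposited score and the −log10 p-value were not used. Read counts per peak are not in the lists, and counting precision is therefore not given. By the sequencing depths in the study's methods CGE was the deepest region in total, followed by CTX, LGE and MGE, and a deeper library can yield more and weaker peaks.

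Coverage was the percentage of bases under peaks, computed in Python 3.11.15 with NumPy 2.4.6 and checked on simulated peaks, with GENCODE M21 genes on 20 chromosomes and coordinates counted from 1. No peak lay past a chromosome end. Genes named were the 6 members, all genes overlapping the windows, a list of 18 GABAergic genes, markers of the regions, and for each member the 3 genes nearest in coverage. Some genes and 1 sequence that these rules would name are not reported here. The members and lists were chosen with earlier results of these data known. The alternatives were a stricter q-value, lists cut to equal numbers of peaks or to equal bases, joined peaks, other flanks and windows, other limits and RefSeq gene ends. No test was possible with 1 merged list per region.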

Additional observations from a re-analysis of the deposited data

How the results depend on the processing

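Joining peaks within 2 kb and taking curated RefSeq starts were alternatives chosen after seeing the data. For CTX minus the eminences in the *Dlx1-Dlx2*, *Dlx3-Dlx4* and *Dlx5-Dlx6* windows (6.18, -1.50 and 4.26 points), flanks of 5 kb gave 8.06, -1.70 and 4.83, flanks of 20 kb gave 3.28, -0.804 and 3.12, and joining within 2 kb gave 5.95, 0.340 and 8.14, so that *Dlx3-Dlx4* changed sign. A q under 0.001 gave 4.96 and equal covered bases 4.71 for *Dlx1-Dlx2*, with the other 2 windows unmoved. Equal numbers of peaks and RefSeq gene ends moved none of the 3 beyond rounding, and joining within 1 kb could not, since no gap in the lists is under 1119 bases. The 3 members marked in all lists became 6 at 1 covered base and 0 at 80%. The 2 members that differed in CTX by 20 points became 0 with joining within 2 kb, with 5 kb either side of the 5′ end, and at a limit of 30 points. At *Dlx6* joining within 2 kb gave -14.1 points in place of 2.32. Total depth by the study's methods was lowest for MGE and highest for CGE, and its part in the differences was not tested. No paired analysis was possible because each list was called on merged samples, and for the same reason no replicate could be left out.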
